A study of Mus musculus with 4 samples.

Results

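Cdkn2a and Cdkn2b, 2 neighbouring genes of the INK4 family, were followed across the cell types of the aged mouse lung. They were taken by symbol from the 31054 features of the count matrices (Cdkn2a, ENSMUSG00000044303, and Cdkn2b, ENSMUSG00000073802), and their raw UMIs (unique molecular identifiers, 1 per captured mRNA molecule) were read in all 4 libraries. The mice were male C57BL/6 animals of 19 months. For 1 month they received BPTES, an inhibitor of the glutaminase GLS1, or DMSO, its vehicle, with 2 libraries per group. Each library mixed 20000 CD45- with 9000 CD45+ sorted cells of a digested lung, so the share of immune cells was set by the mix, and was read with the 10x GEM-X 3' kit. No untreated and no young animals were among the samples, every library came from aged lung, and the labels do not say whether the 2 libraries of a group are 2 animals. All p-values therefore measure the spread between libraries.

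The proteins of the INK4 family bind the kinases CDK4 and CDK6 and keep cyclin D from activating them, which holds RB in its active form and the cell in G1. Cdkn2a encodes 2 unrelated proteins from separate first exons: p16Ink4a, of this family, and p19Arf, which binds MDM2 and stabilises p53. Cdkn2b encodes p15Ink4b, a target of TGF-beta signalling in many cell types. Transcripts of Cdkn2a are widely used as markers of senescent cells, and the locus is kept silent by Polycomb proteins in young tissue. The gas exchange surface of the lung, where much of the signal below lies, is built of flat AT1 epithelial cells and of capillaries with general capillary cells and aerocytes, the large thin endothelial cells specialised for gas exchange.

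In the GENCODE vM21 annotation of GRCm38 (mm10), both genes lie on the minus strand of chromosome 4, 11645 bases apart. Cdkn2b spans chr4:89306299-89311039 with 2 exons. Cdkn2a spans chr4:89274471-89294653 with 2 annotated transcripts of 3 exons each. The upstream first exon at chr4:89294334-89294653 is that of p19Arf, and the first exon at chr4:89281986-89282192, which begins 12461 bases further down, is that of p16Ink4a. Exon 2 (chr4:89276645-89276985) is the same in both transcripts, and exons 3 share chr4:89274541-89274774. The exon 3 of the p16Ink4a form runs further, to 89274471. The count matrices hold Cdkn2a as 1 feature, so its UMIs are not divided here between p16Ink4a and p19Arf.

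The 250 bases before each of the 3 starts, from RefSeq on GRCm38.p6 and read 5' to 3' on the minus strand, are shown because Cdkn2a UMIs can come from either of its starts and the 3 starts differ in base composition. Capitals mark a match to one of 5 motifs searched on both strands: the GC box GGGCGG, the E2F site TTTCCCGC, the cAMP response element TGACGTCA, the T-box half-site GGTGTGA and the TATA box TATAAA. The sequences are those before the Cdkn2b start (chr4:89311033-89311282), before the upstream Cdkn2a start (chr4:89294620-89294869) and before the downstream Cdkn2a start (chr4:89282193-89282442). The RefSeq starts of Cdkn2b (89311032) and of upstream Cdkn2a (89294619) lie inside the GENCODE first exons, so the end of these 2 windows, with 1 of the GC boxes, overlaps exon sequence of that annotation.
Cdkn2b start: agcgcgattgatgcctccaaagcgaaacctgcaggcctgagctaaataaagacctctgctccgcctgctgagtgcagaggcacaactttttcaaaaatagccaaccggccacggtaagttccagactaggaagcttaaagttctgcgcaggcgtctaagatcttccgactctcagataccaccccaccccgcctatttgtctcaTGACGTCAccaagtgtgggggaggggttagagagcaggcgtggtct
Cdkn2a upstream start: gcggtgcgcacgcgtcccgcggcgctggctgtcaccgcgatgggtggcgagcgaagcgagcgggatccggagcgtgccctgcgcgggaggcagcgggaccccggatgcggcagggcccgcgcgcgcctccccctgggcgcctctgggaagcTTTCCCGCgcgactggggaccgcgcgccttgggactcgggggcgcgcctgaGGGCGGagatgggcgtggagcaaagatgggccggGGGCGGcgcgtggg
Cdkn2a downstream start: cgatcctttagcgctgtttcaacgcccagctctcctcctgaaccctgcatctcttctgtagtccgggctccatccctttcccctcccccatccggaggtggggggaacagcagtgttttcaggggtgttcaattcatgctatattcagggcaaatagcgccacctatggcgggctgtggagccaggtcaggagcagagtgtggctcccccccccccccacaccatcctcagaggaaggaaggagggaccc

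The upstream Cdkn2a window held 40 CpG dinucleotides and was 78.4% G or C. Of 32851 RefSeq promoter windows of the same length, 98.7% held fewer CpG. The downstream window held 7 CpG (60.0% G or C), more than 53.7% of windows, and the Cdkn2b window 12 (53.6% G or C), more than 66.5%. The upstream Cdkn2a window carried 2 GC boxes, a motif found in 32.7% of all windows, and 1 E2F site, found in 0.895%. The Cdkn2b window carried 1 cAMP response element, found in 1.55%. No T-box half-site (3.33% of windows) and no TATA box (12.4%) was found in any of the 3 windows, and none of the 5 motifs in the downstream one. These are matches of letters and show no binding.

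The libraries held 260346570 to 342107092 UMIs over all barcodes, and 63895 cells were kept (14407 to 18860 per library) with a median of 13998.5 to 15881 UMIs per cell. Pairs of libraries shared 75 to 121 cell barcodes. Clustering without either gene gave 26 named classes with 54930 cells, each called "X-like" from its markers, and 8965 cells stayed in unnamed clusters. The aerocyte-like class was 1 cluster of 1566 cells led by Ednrb, Car4, Fibin and Apln. Cdkn2a had 1240 UMIs in 542 cells and Cdkn2b 6118 UMIs in 3121 cells.

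Aerocyte-like cells were 2.45% of the cells and held 557 of the Cdkn2a UMIs (44.9%) and 2989 of the Cdkn2b UMIs (48.9%). They made up 170 of the 542 Cdkn2a-positive cells (31.4%) and 1063 of the 3121 Cdkn2b-positive cells (34.1%). All levels below are CPM, the UMIs of the gene per 1000000 UMIs of the class in that library, given in the order BPTES 1, BPTES 2, DMSO 1, DMSO 2. Classes came from clusters of these same cells, so their order is a description with no test.

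Cdkn2a stood at 27.1, 16.5, 31.1 and 10.7 CPM in aerocyte-like cells, with a mean of 21.4 ± 9.41 (SD, n = 4 libraries). The lowest of these libraries lay above every library of every other class with at least 20 cells in each library. A Cdkn2a UMI was seen in 10.9% of aerocyte-like cells at medians of 16690 to 18077 UMIs per cell, and in 4.37% of them once each cell was thinned to 3000 UMIs. As an example of a low class, 0.0361% of 2769 neutrophil-like cells had a Cdkn2a UMI, at lower medians of 9143 to 10208 UMIs. A background of stray UMIs was not measured. Conventional dendritic-like cells came second at 2.51, 2.95, 6.30 and 1.41 CPM (44 of 961 cells), followed by interstitial macrophage-like cells at 1.39, 1.94, 2.30 and 2.06 CPM. Of the 37 dendritic UMIs in DMSO 1, 26 came from 1 cell. These 2 classes overlapped each other, and 17 of the 21 ordered classes had a mean under 1 CPM.

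The other endothelial classes carried little Cdkn2a. General capillary-like cells, the neighbours of aerocytes in the same capillaries, had 0.317, 0.544, 0.377 and 0.276 CPM. The level in aerocyte-like cells was 56.4 times theirs (30.4 to 85.4 by library). Venous-like cells had 2 UMIs in all, and no UMI was seen in 1030 arterial-like cells, which allows a share of up to 0.291% of cells with a UMI. In the epithelium, AT1-like cells had 3 UMIs in 315 cells, AT2-like cells 1 UMI, and none was seen in 425 ciliated-like cells (a share of up to 0.706%) or in 68 club-like cells (up to 4.41%). Among the stromal classes, adventitial fibroblast-like cells had 0.112, 0.937, 1.68 and 0.699 CPM, and 772 peribronchial fibroblast-like cells had none (up to 0.389%). T-like cells had 1.10, 0.574, 1.42 and 0.847 CPM and B-like cells 0.755, 0.265, 0.592 and 1.43. In the order of all 21 classes, 19 of the 20 neighbouring pairs overlapped between libraries.

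Classes with fewer than 20 cells in some library were left out of that order, and some of them had much Cdkn2a. The proliferating cluster of 51 cells stood at 12.2, 25.0, 19.7 and 50.8 CPM, with a UMI in 22 cells (43.1%). Every one of the 51 cells had at least 3 UMIs of the leukocyte gene Ptprc and 43 of them at least 3 of Cd3e or Cd3d, as had 19 of the 22 positive cells. At the same threshold 17 of the 51 cells (7 of the 22) had Lyz2 or Csf1r, genes of myeloid cells, and 18 (7 of the 22) had Pecam1 or Cdh5, genes of endothelial cells, so the cluster was mixed in its markers. The part of depth in these marker counts was not tested. Plasma-like cells (96 cells) stood at 28.5, 9.24, 16.9 and 1.95 CPM, a range wider than that of aerocyte-like cells. These values rest on 3, 5, 2 and 2 positive cells, with up to 20 UMIs in 1 cell. Mesothelial-like cells had 48 of their 49 UMIs in DMSO 1, which held 222 of the 307 cells of the class.

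**Figure D1:**
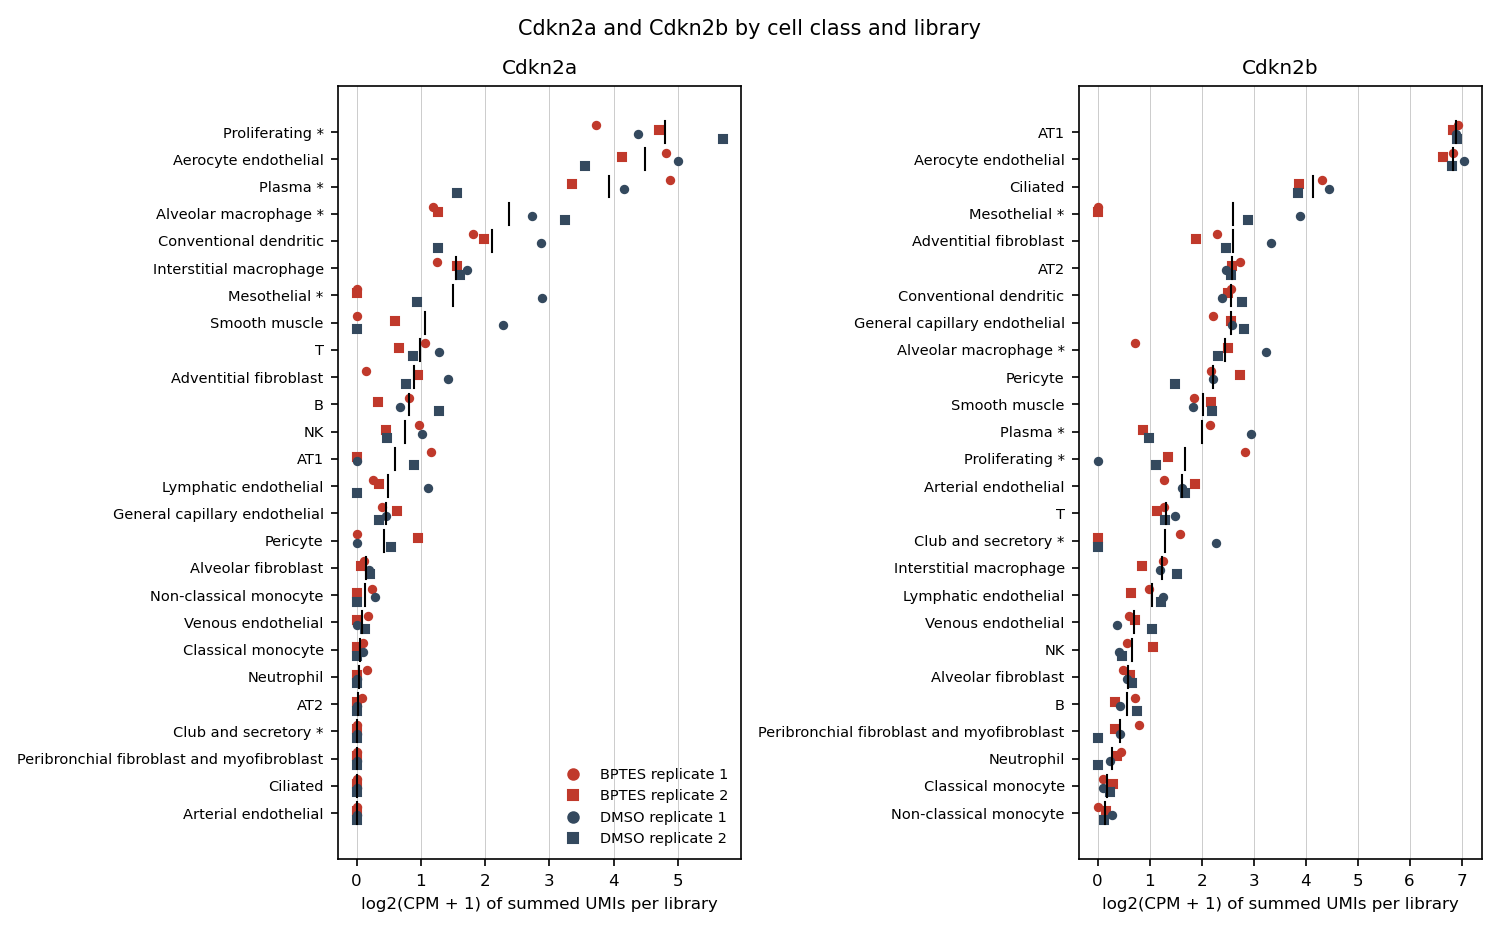
Levels of Cdkn2a (left) and Cdkn2b (right) in the 26 named classes, as log2(CPM + 1) of the UMIs summed per library. Points are the 4 libraries, black bars their mean CPM on that scale, and a star marks classes with fewer than 20 cells in some library. Of the classes without a star, aerocyte-like cells lead for Cdkn2a (10.7 to 31.1 CPM), and AT1-like and aerocyte-like cells share the top for Cdkn2b.

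Cdkn2b was highest in AT1-like and aerocyte-like cells. AT1-like cells stood at 121, 113, 118 and 119 CPM (118 ± 3.44) and aerocyte-like cells at 113, 98.6, 130 and 112 CPM (114 ± 13.1). The 2 classes overlapped, with a ratio of aerocyte-like to AT1-like cells of 0.963 (0.872 to 1.10 by library), and both lay apart from every class below them. A Cdkn2b UMI was seen in 67.9% of aerocyte-like cells and in 133 of the 315 AT1-like cells (42.2%), beside 0.253% of neutrophil-like cells. The AT1-like cells were shallow, with medians of 3425 to 9328 UMIs, so their share and that of aerocyte-like cells were not at equal depth.

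Ciliated-like cells came next for Cdkn2b at 19.0, 13.7, 20.9 and 13.4 CPM and also lay apart from the next class. The following classes were close together: adventitial fibroblast-like 5.07, AT2-like 5.03, conventional dendritic-like 4.93 and general capillary-like 4.89 CPM on average. AT1-like cells thus had 23.4 times the level of AT2-like cells (21.4 to 26.2 by library), and aerocyte-like cells 23.2 times that of general capillary-like cells (18.5 to 31.1). Within both pairs, the flat gas exchange cell had the high level. Cdkn2b was seen in all 21 classes, in 8 of them under 1 CPM on average, and 18 of the 20 neighbouring pairs overlapped.

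The genes whose class pattern was most like each member were found by Pearson's r of log2(CPM + 1) over the 21 classes among 13993 genes, as a description, since the classes share libraries. For Cdkn2a they were Slc5a12 (r = 0.848), Rprml (0.831), Gm40639 (0.825), Usp44 (0.824) and Gm16564 (0.811). All 5 had their highest level in aerocyte-like cells, Slc5a12 with 103 CPM there and 0.590 in the next class. For Cdkn2b they were Tekt5 (0.889), Gramd2 (0.831), Chst9 (0.827), Coa3 (0.821) and Gm13816 (0.806). Gramd2 was highest in AT1-like cells (318 CPM) and Chst9 in aerocyte-like cells (88.4 CPM) with AT1-like cells next (15.1 CPM). The correlation of Cdkn2a with Cdkn2b was 0.553, and the classes that parted them were AT1-like and ciliated-like cells, high in Cdkn2b with 3 and 0 UMIs of Cdkn2a.

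Within the aerocyte-like class the 2 genes were spread over the cells in different ways. Cdkn2a was uneven: 1 UMI in 85 cells, 2 in 32 and 3 or more in 53, with up to 17 in 1 cell and none in the others. The share of positive cells was 11.0% and 8.77% with BPTES and 14.7% and 9.41% with DMSO. The 10 richest cells of a library held 55.9% to 71.4% of its Cdkn2a UMIs, and the variance over cells was 6.88 times the mean (3.51 to 8.42 by library). Cdkn2b was found in most cells: 340 with 1 UMI, 269 with 2 and 454 with 3 or more, with a variance of 2.46 times the mean. Its share of positive cells was 67.6%, 64.9%, 70.5% and 68.8% in the 4 libraries.

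**Figure D2:**
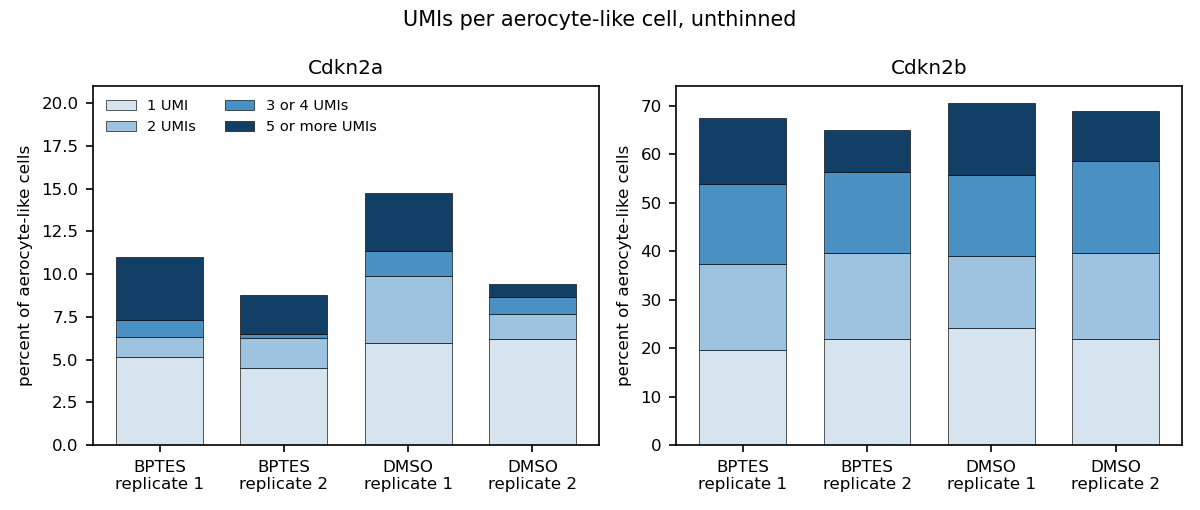
Percent of aerocyte-like cells with 1, 2, 3 or 4, and 5 or more UMIs of Cdkn2a (left) and Cdkn2b (right) in each library, as stacked bars whose height is the percent of positive cells; the 2 panels have different axes. Cdkn2a was found in 8.77% to 14.7% of cells and Cdkn2b in 64.9% to 70.5%.

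Which genes accompany Cdkn2a in single aerocytes was asked first with the gate by marker genes: cells with at least 1 UMI of Cdh5, an endothelial cadherin, and at least 1 of Ednrb or Apln. It took 3209 cells, of which 182 were Cdkn2a-positive (48, 37, 55 and 42 by library). The gate was not made of aerocytes alone: 1525 of its cells (47.5%) were aerocyte-like, 552 general capillary-like, 478 lymphatic-like, 158 arterial-like and 58 venous-like. Each positive cell was set beside 3 negative gated cells of the same library nearest in total UMIs, so that both arms had the same depth (positive medians of 17487 to 20520 UMIs, negative 17481 to 20221). The 2 arms differed in their makeup, since 90.5% to 93.8% of the positive cells but 44.4% to 58.6% of the negative cells were aerocyte-like. In these comparisons the CPM of a gene in an arm is over library sizes scaled by TMM, and a fold change is that of edgeR on the log2 scale.

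In the gate, the aerocyte program was higher in Cdkn2a-positive cells and the programs of other vessels were lower. Of the 16 aerocyte identity genes, Ednrb and Apln were used by the gate, and the other 14 rose, among them Fibin (1.06), Tbx2 (0.86) and Car4 (0.81). Of 12 general capillary genes tested, 11 fell (median log2 fold change -2.36, against 0.01 over all genes tested), such as Plvap (-2.74), Kit (-2.70) and Gpihbp1 (-1.99). In all, 563 genes rose and 928 fell of 9901 tested, 15.1% (edgeR, adjusted p under 0.05), and 863 genes in all were called without BPTES 1 and 913 without DMSO 1. The summed level of the lymphatic marker list moved with the arms, at 306 to 808 CPM in positive and 2569 to 6329 CPM in negative cells, as did those of the general capillary list (1796 to 2113 against 2892 to 3691 CPM) and the arterial list (241 to 295 against 646 to 944 CPM). The AT1 list was apart in the other direction, at 5362 to 6348 CPM in positive and 3398 to 4465 CPM in negative cells. This list shares Emp2 with the aerocyte list. Within the aerocyte-like class alone it stood at 6185 to 6583 CPM in positive and 6164 to 6425 CPM in negative cells. Its difference in the gate is thus not shown to be RNA of AT1 cells. The AT2 list stood at 4824 CPM in the negative cells of DMSO 2 and at 146 to 351 CPM in the other 7 arms. Some lists also ranged widely over the positive arms: adventitial fibroblast 138 to 1027, neutrophil 17.0 to 763 and proliferating 75.0 to 635 CPM. Over the negative arms the smooth muscle list ran from 31.6 to 633 CPM.

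Cdkn2b, the partner gene, stood at 175, 115, 153 and 121 CPM in the positive cells of the gate and at 56.8, 66.1, 63.2 and 74.2 CPM in the negative cells. The arms did not overlap, and Cdkn2b rose by 1.12 on the log2 scale (SE 0.16, edgeR adjusted p = 0.00145). Of 4 genes listed as neighbours of the locus, 2 had enough UMIs to be tested. Mtap, the methionine salvage enzyme, rose by 0.59 (49.6 against 33.2 CPM). Elavl2, an RNA-binding protein gene, rose by 1.87 (13.4 against 3.63 CPM), beside 15.1% of all genes called. The filter on low counts keeps a gene that is high in 1 arm alone, and Elavl2 was low in negative cells. That both tested neighbours rose is therefore a description and no support for a change of the locus. Of 5 other CDK inhibitors tested, Cdkn1a (p21) rose by 0.70 to 1044 from 650 CPM and Cdkn1c (p57) fell (-2.12). Of 9 CDK4/6 partners and RB arm genes, Ccnd1 rose (0.38) and Cdk6 fell (-1.99), while Cdk4 (0.07, adjusted p = 0.805) and Rb1 (0.00, adjusted p = 0.991) did not pass the test.

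Of the 12 genes of the ARF and p53 arm, 4 rose and 1 fell (median 0.31), beside 563 and 928 of the 9901 genes tested and a median of 0.01. Phlda3, a p53 target that restrains AKT, rose by 0.92 (460 against 245 CPM), Ccng1 by 0.65, Sesn1 by 0.51 and the death effector Bax by 0.48, and Npm1, which holds p19Arf in the nucleolus, fell (-0.38). Mdm2 (0.13) and Trp53 (-0.10) did not pass the test. Of 31 tested genes of the senescence and secretory list, 7 rose and 13 fell (median -0.25). Gdf15, a stress cytokine, rose by 1.22 (132 against 46.3 CPM, in 3 of 4 libraries), and Il1a, an inflammatory cytokine, by 0.68. Vegfa (-3.11), Edn1 (-2.82) and Il6 (-2.21) fell.

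Outside the lists, the genes with the largest rise at 20 CPM or more were Chst9, a sulfotransferase (1.72, 114 against 36.0 CPM), Abca14 (1.54), Fam171b (1.41), Gm24474 (1.39) and Eda2r, a receptor gene of the p53 response (1.36, 26.5 against 10.4 CPM), followed by Gm30648, 1500009L16Rik, Dusp4, Tepp, Klf8, Ms4a8a and Zfp60 (1.17 to 1.34). The largest falls were in Hhip, with no UMI in positive cells and 67.5 CPM in negative cells, Sncaip (-6.31), Sulf1 (-5.39), Csmd1 (-5.31) and Efna5 (-5.23), followed by Pdlim3, Nr5a2, Esm1, Pgm5, Nhsl1, Adgrg6 and Chrm3 (-5.09 to -4.24). Hhip is a marker of peribronchial fibroblasts and myofibroblasts, and 22 gated cells were of that class. Because the arms differed in makeup, the comparison was repeated within aerocyte-like cells alone.

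Within the aerocyte-like class, 170 positive cells were set beside 510 negative cells matched in the same way, and no gene passed the test. Since 85 of the 170 positive cells had a single Cdkn2a UMI, a cell without one is not shown to lack the transcript. The negative arm may hold such cells, which would lessen a difference between the arms. Of 9074 genes, 0.0% were called by edgeR, 506 (5.58%) had an unadjusted p under 0.05, and DESeq2 called 0. Without BPTES 1 or DMSO 1 the count was 1, without BPTES 2 it was 5 and without DMSO 2 it was 6. The arms were closer in makeup than in the gate. The general capillary marker list summed to 1684 to 1907 CPM in positive and 1684 to 1978 CPM in negative cells, and the aerocyte list to 10658 to 11844 and 10859 to 11468 CPM, while the lymphatic list stood at 106 to 192 and 122 to 507 CPM. Of 10 general capillary identity genes tested 0 were called, with a median log2 fold change of -0.29 and 3 at an unadjusted p under 0.05. Of the 1491 genes called in the gate, 1095 were tested within the class, where their median absolute log2 fold change was 0.10 against 0.62 in the gate and 162 (14.8%) had an unadjusted p under 0.05.

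Cdkn2b in this comparison stood at 181, 124, 161 and 141 CPM in positive cells and 107, 89.6, 129 and 129 CPM in negative cells. The positive value was the higher one in each library, but the arms overlapped across libraries. The log2 fold change was 0.42 (SE 0.11, edgeR unadjusted p = 0.0008, adjusted p = 0.331). A Cdkn2b UMI was present in 86.7%, 68.6%, 88.5% and 81.6% of positive cells and in 72.6%, 62.9%, 83.3% and 71.1% of their matched negative cells. In DMSO 2 the direction depended on the matching. With 1 negative per positive, DMSO 2 had 95 Cdkn2b UMIs in 38 positive and 109 in 38 negative cells. With positives at 2 UMIs, it had 26 in 13 positive and 102 in 39 negative cells. The other libraries kept their direction in both. Values of the CDK inhibitors were 0.09 for Cdkn1a (1074 against 1007 CPM), 0.19 for Cdkn1b and 0.39 for Cdkn2c, none called. Elavl2 had 1.21 (SE 0.34, edgeR adjusted p = 0.474, 14.6 against 5.87 CPM) and Mtap 0.31, both higher in the positive cells of 4 of 4 libraries. Here too Elavl2 was low in negative cells, and the filter may have kept it through the positive arm.

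The 6 genes of smallest p in each direction, none of them called, were Chst9 (0.57, 124 against 82.5 CPM), Gm37240 (0.63), Rnf220 (0.69), Zfp60 (1.17), Tcte2 (0.42) and Cacna1a (0.48) above, and Ccnl1 (-0.39), F2r, the thrombin receptor (-0.72, 54.9 against 87.1 CPM), St6galnac6 (-1.05), Mast4 (-0.29), Lilr4b (-1.17) and Cpne8 (-0.27) below, with edgeR adjusted p of 0.239 to 0.305. Chst9 is also one of the 5 genes most like Cdkn2b over classes. Since no gene was called, the lists are given by their medians and unadjusted p, beside a median of 0.00 and 5.58% of genes with a p under 0.05 over all genes tested. In the ARF and p53 arm the median was 0.19 and 2 of 11 genes had such a p. The log2 fold changes of that arm ran from -0.12 to 0.32. Among senescence and secretory genes the values were -0.09 and 3 of 18, running from -0.53 to 0.75. Among antigen presentation genes they were -0.13 and 3 of 12, and among Polycomb and other regulators of the locus 0.03 and 1 of 17. The 16 aerocyte identity genes had a median of 0.05.

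**Figure D3:**
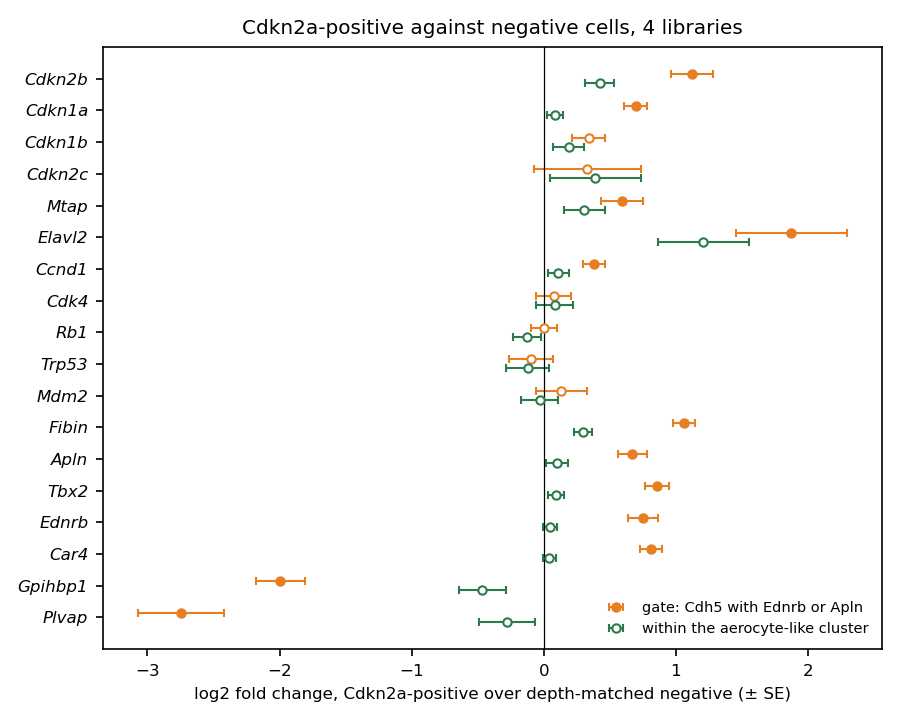
Log2 fold change of Cdkn2a-positive over depth-matched negative cells for selected genes, with its standard error over 4 libraries, in the marker gate (orange) and within the aerocyte-like class (green). Filled points passed the test and open points did not. Cdkn2b is at 1.12 in the gate and 0.42 within the class. The aerocyte and general capillary genes at the bottom lie far from 0 in the gate alone. Among them, Ednrb and Apln were used by the gate, so their points there are no result.

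Whether the difference between positive and negative aerocytes was another with BPTES than with DMSO was tested by an interaction term. In the gate, 0.0% of 10770 genes were called (edgeR; 476 at an unadjusted p under 0.05; DESeq2 0), but 1 without BPTES 2, 108 without DMSO 1 and 40 without DMSO 2. Within the aerocyte-like class 2 of 9571 were called (0.0209%; DESeq2 0), and 6 to 12 without any 1 of the 4 libraries. Phlda1, a gene of apoptosis and growth factor signalling, stood at 251 and 330 CPM in BPTES positive cells against 171 and 208 in negative cells, and at 202 and 201 CPM in DMSO positive cells against 242 and 305 (difference of log2 fold changes 1.02, SE 0.17, adjusted p = 0.0220). It was higher in the positive cells of both BPTES libraries and lower in those of both DMSO libraries, and without each library in turn the difference was 0.87 to 1.21. Each of those fits leaves 1 library in one group, which is assumed to vary like the others. Gm26870 was called with 5.43 (adjusted p = 0.000302) on 4, 196, 0 and 8 UMIs in the positive arms, and without BPTES 2 its difference was 2.92 (adjusted p = 0.788). For Cdkn2b the interaction was 0.40 (SE 0.21, adjusted p = 0.961).

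The same comparison was made in the 2 other classes with the most Cdkn2a-positive cells in their smallest library, in 1 fit with the gated aerocytes. General capillary-like cells had 49 positive cells, 3 of them also in the positive arms of the gate. Their Cdkn2b level was 5.69, 18.6, 27.7 and 46.2 CPM in positive cells and 3.79, 3.78, 9.78 and 6.24 CPM in negative cells, higher in 4 of 4 libraries (log2 fold change 2.15, SE 0.54, edgeR adjusted p = 1.0). A Cdkn2b UMI was found in 1 of 12, 3 of 15, 1 of 9 and 6 of 13 positive cells by library. The positive values of BPTES 1 and DMSO 1 thus rest on 1 cell each. Of 9976 genes, 0.0% were called (423 at an unadjusted p under 0.05). The difference from the gated aerocytes was called for 126 genes (1.26%), and for 0 with the aerocyte-like class in place of the gate. For Cdkn2b it was -1.03 (adjusted p = 0.590).

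Conventional dendritic-like cells, which present antigen to T cells, showed a larger contrast. The class joined 2 clusters, one of 588 cells led by Ccl17, Ccl22 and Cd209a with some Siglech, a plasmacytoid gene, and one of 373 cells led by Xcr1 and Clec9a. The first held 37 of the 44 Cdkn2a-positive cells and 154 of the 171 Cdkn2b UMIs. Negative cells were matched on library and depth but not on cluster, and the part of this makeup in the contrast was not tested. The 44 positive cells had 46.6, 45.2, 73.1 and 89.4 CPM of Cdkn2b, and the matched negative cells 0.763, 1.95, 0.0 and 1.71 CPM. The arms lay far apart, and Cdkn2b rose by 5.39 (SE 0.42, edgeR adjusted p = 4.99e-07). The size of this fold change rests on the low level of the negative cells, with no UMI in those of DMSO 1. Cdkn2b was found in 54.5% of positive and 4.25% of all negative cells of the class. The log2 fold change in gated aerocytes minus that in dendritic-like cells was -4.26 (SE 0.50, adjusted p = 8.53e-05), and -4.96 with the aerocyte-like class in place of the gate (adjusted p = 7.54e-07). Differences of this kind were called for 759 genes (7.61%) with the gate and for 402 with the aerocyte-like class.

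In the dendritic-like cells 1090 genes passed the test (10.9%; 550 rose and 540 fell). Fscn1, an actin bundler of migrating dendritic cells, rose to 1665 from 37.2 CPM (5.66), the chemokine Ccl5 to 4068 from 48.3 CPM (6.95), the integrin gene Itgb8 by 6.89 and Apol7c by 6.33. Of 13 antigen presentation genes, 5 rose and 0 fell (median 0.41 against -0.13 over all genes), led by Nlrc5, the activator of class I genes (1.88, 287 against 77.7 CPM), with H2-K1 at 0.82 and B2m at 0.77. Of 14 proliferation genes, 9 rose and 0 fell (median 2.14), among them Top2a (2.99, 417 against 52.8 CPM), Ube2c (3.01) and Mki67 (1.92). Of 13 general capillary genes, 0 rose and 4 fell (median -1.20), and their part in the contrast was not tested. Cdkn1b (p27), which holds resting cells out of the cycle, fell (-0.59), as did the monocyte genes Ly6c2 (-3.23) and Clec4e (-3.64). In the gate of aerocytes, 2 genes of the proliferation list had enough UMIs to be tested and 0 were called.

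Because Fscn1 stood out, the dendritic-like cells were split, after these values had been seen, into those with a UMI of both Ccr7 and Fscn1, genes of mature dendritic cells that travel to lymph nodes, and the others. Among the 65 cells with both, 23 (35.4%) had Cdkn2a and 36 (55.4%) had Cdkn2b. Among the 896 others the shares were 2.34% and 3.01%, at medians of 33908.5 UMIs per cell beside 37313 in the cells with both. In the cells with both genes Cdkn2a stood at 18.2, 27.1, 75.6 and 16.6 CPM, and in the others at 0.753, 1.22, 0.735 and 0.409. The 75.6 CPM of DMSO 1 rests on 33 UMIs in 4 cells, 26 of them in 1 cell. Cdkn2b stood at 43.2, 51.4, 52.7 and 64.2 CPM against 0.645, 1.32, 0.368 and 2.05. Neither gene overlapped between the 2 sets of cells, and the cells with both were 9 to 24 per library. As the split follows from the contrast above, it carries no test.

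**Figure D4:**
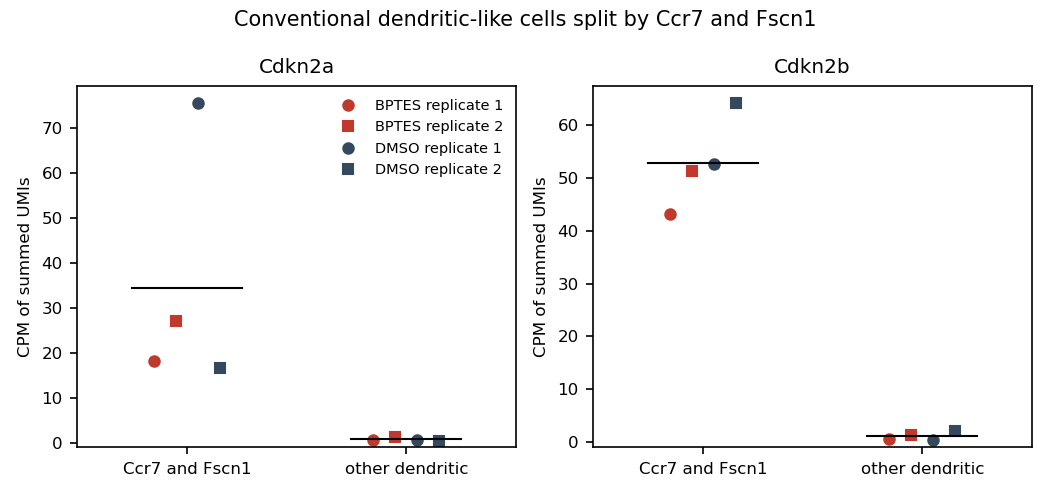
Cdkn2a and Cdkn2b in conventional dendritic-like cells with a UMI of both Ccr7 and Fscn1 and in the other cells of that class, in CPM with 1 point per library and bars for the mean. The 65 cells with both genes stand at 16.6 to 75.6 CPM of Cdkn2a and 43.2 to 64.2 CPM of Cdkn2b, above all values of the other 896 cells; 26 of the 33 Cdkn2a UMIs behind the highest point came from 1 cell.

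Between BPTES and DMSO, neither gene passed the test in any class. In the 20 classes where each library had 50 cells or more, Cdkn2a had enough UMIs to be tested in 6 and Cdkn2b in 8, plus the gate. No test of either gene was called by edgeR, 0 for Cdkn2a and 1 for Cdkn2b had an unadjusted p under 0.05, and DESeq2 called 0. Cdkn2a was lower with BPTES in 4 of its 6 classes (log2 fold change -0.95 to 0.49, smallest adjusted p = 0.534) and Cdkn2b in 7 of 8 (-1.06 to 0.23, smallest adjusted p = 0.321). These classes come from the same 4 libraries and are not independent.

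In aerocyte-like cells Cdkn2a was 27.1 and 16.5 CPM with BPTES and 31.1 and 10.7 CPM with DMSO. The BPTES libraries lay between the DMSO libraries (log2 fold change 0.11, SE 0.36, edgeR adjusted p = 0.951), and the sign depended on the libraries, at -0.28 without BPTES 1, -0.48 without DMSO 2 and 1.04 without DMSO 1. Cdkn2b was 113 and 98.6 CPM with BPTES and 130 and 112 CPM with DMSO, overlapping groups (-0.17, SE 0.09, adjusted p = 0.603). In that class 15 of 11588 genes were called (0.129%), and 2 to 411 without 1 library. In the gate, where 0.0% of 14746 were called, the values were 0.11 (SE 0.47, adjusted p = 0.936) for Cdkn2a and -0.09 (SE 0.08, adjusted p = 0.662) for Cdkn2b. Both BPTES libraries of the gate were below both DMSO libraries for Cdkn2b (56.3 and 54.8 against 64.9 and 57.0 CPM), as for 23.7% of all genes tested there.

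The share of gated cells with a Cdkn2a UMI after thinning to 3000 UMIs was 2.16% ± 0.189 (SD, n = 2) with BPTES and 2.19% ± 1.14 (n = 2) with DMSO. The difference of -0.0312 percentage points had an exact two-sided permutation p of 1.0, and 2 libraries against 2 cannot go below 0.33. For Cdkn2b the shares were 12.8% and 14.0% (exact p = 0.33), and the groups overlapped when thinned to 1000 UMIs (exact p = 1.0), without thinning (exact p = 0.67) and with doublets kept (exact p = 1.0). In aerocyte-like cells they were 4.21% ± 0.726 and 4.52% ± 2.54 for Cdkn2a, and 24.6% ± 1.54 and 28.2% ± 2.64 for Cdkn2b (exact p = 0.33).

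Among the other classes tested, adventitial fibroblast-like cells had the log2 fold change farthest from 0, in Cdkn2b: 3.92 and 2.70 CPM with BPTES and 9.10 and 4.54 CPM with DMSO (-1.06, SE 0.40, edgeR adjusted p = 0.321). The groups did not overlap, as for 23.6% of genes in that direction, and 0.0% of all genes of the class were called; with no filter on low counts the Cdkn2b difference passed the test (adjusted p = 0.00444; 0.0725 to 0.845 over the 12 other alternatives). The adventitial class joined 2 clusters. Cdkn2b in the one of 1419 cells was 5.61 and 3.34 CPM with BPTES and 10.8 and 5.77 CPM with DMSO. It was 0.656 and 1.46 against 1.94 and 1.65 CPM in the one of 626 cells. The part of their mix in the class values was not tested. In general capillary-like cells (0.0% called) Cdkn2b was 3.65 and 4.89 against 4.99 and 6.03 CPM, below in both as were 28.2% of genes. Cdkn2a had 0.49 in that class (edgeR adjusted p = 0.534). T-like cells (0.0156% called) had Cdkn2b at 1.44 and 1.22 against 1.80 and 1.47 CPM, below in both as were 21.3% of genes. Interstitial macrophage-like cells (0.402% called) had Cdkn2a at 1.39 and 1.94 against 2.30 and 2.06 CPM, below in both as were 24.6% of genes. AT2-like cells (0.254% called) had the only Cdkn2b difference above 0 among the 8 classes tested, at 5.68 and 5.02 against 4.52 and 4.91 CPM, above in both as were 23.9% of genes.

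The groups overlapped for Cdkn2b in 3 further classes: alveolar fibroblast-like (-0.11, 0.376% of genes called), ciliated-like (-0.04, 0.0% called) and conventional dendritic-like cells (-0.07, 0.0% called). AT1-like cells had too few cells for a fit, and their Cdkn2b level was 121 and 113 CPM with BPTES and 118 and 119 CPM with DMSO. Cdkn2a in dendritic-like cells had -0.44 and in adventitial fibroblast-like cells -0.95, with SEs of 0.66 and 0.80.

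**Figure D5:**
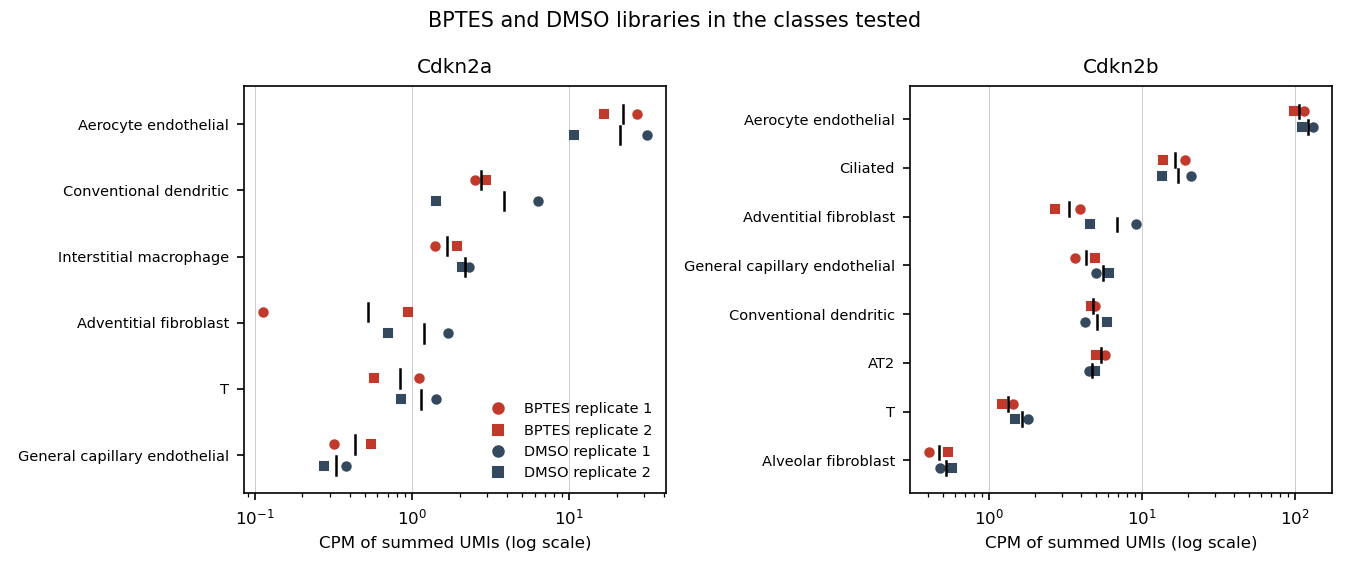
Cdkn2a (left) and Cdkn2b (right) in the BPTES and DMSO libraries of each class where the gene could be tested, in CPM on a log axis; points are libraries and bars the group means. None of the differences passed the test, and the BPTES and DMSO means of Cdkn2b lie farthest apart on this axis in adventitial fibroblast-like cells.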

How the data were processed

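Lung cells of 4 libraries (2 BPTES, 2 DMSO) were profiled with a 3' single-cell kit. The deposited values are raw UMI counts per gene and barcode; per the submitters' processing notes, the authors used Cell Ranger 8.0.1 and mm10. Cells with at least 1000 UMIs, 500 genes and at most 10% mitochondrial counts were kept, and the cells with the highest simulated-doublet scores were removed (0.4% per 1000 cells). Cells were clustered on 2000 variable genes without Cdkn2a and Cdkn2b, 40 components and 15 neighbours (igraph 0.11.9), and clusters were named from markers. The members, gene lists and markers were chosen with earlier results of these data known.

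Counts were summed per library and tested with edgeR 4.0.16 (quasi-likelihood, TMM, filterByExpr, Benjamini-Hochberg over all genes tested, two-sided, adjusted p under 0.05), and DESeq2 1.42.0 (R 4.3.3) as an alternative. Positive cells had at least 1 Cdkn2a UMI; each took 3 negatives of its library nearest in UMIs, with the library as a block and Cdkn2a left out. Named genes were up to 12 called per direction with the largest fold change at 20 CPM or more that moved the same way in 4 libraries, called list members, Cdkn2b and the CDK inhibitors, and the 6 of smallest p per direction where none was called; in other contrasts, up to 5 called per direction. Conventional dendritic-like and T-like cells tied for the second comparison class, and the first by name was taken. Upper limits for a count of 0 use 3 counts and, like all shares, cover counting error only. Scripts were tested on simulated data.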

Additional observations from a re-analysis of the deposited data

Results flagged for a closer look

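The contrast of Cdkn2b between Cdkn2a-positive and matched negative cells differed between cell types by a test of the difference itself. Its log2 fold change was 1.12 in gated aerocytes and 5.39 in conventional dendritic-like cells, a difference of -4.26 (SE 0.50, edgeR adjusted p = 8.53e-05), on 182 and 44 positive cells. The arms differed in makeup on both sides: 90.5% to 93.8% of positive but 44.4% to 58.6% of negative gated cells were aerocyte-like, and 37 of the 44 dendritic-like positive cells lay in the cluster that held 588 of the 961 cells of the class. With the aerocyte-like class in place of the gate the difference was -4.96. Of the dendritic-like positive cells, 23 had a UMI of both Ccr7 and Fscn1, as had 65 of all cells of the class. The matched negative cells held little Cdkn2b, and the fold change of 5.39 rests on that low level. The part of the dendritic clusters and of the cells with Ccr7 and Fscn1 in the difference was not tested.

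The contrast also differed between BPTES and DMSO within the aerocyte-like class for 2 genes. The difference of log2 fold changes was 1.02 for Phlda1 (edgeR adjusted p = 0.0220), with every BPTES library above 0 and every DMSO library below 0. It was 5.43 for Gm26870 (adjusted p = 0.000302), where BPTES 2 alone held 196 UMIs and the other positive arms 4, 0 and 8. DESeq2 called neither.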

How the results depend on the processing

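Cdkn2a was called in 0 classes between BPTES and DMSO, and in 1 with doublets kept (plasma-like cells, log2 fold change 2.91, edgeR adjusted p = 0.0443, a class of 390 cells with doublets and of 96, too few for a test, without); Cdkn2b was called in 0, and in 1 with no filter. The sign of Cdkn2a in aerocytes was not stable: without single libraries it ran from -0.48 to 1.04 in the aerocyte-like class (-0.28 without BPTES 1, -0.48 without DMSO 2) and from -0.42 to 0.92 in the gate (-0.21 and -0.42). The share difference of -0.0312 percentage points became 0.0410 when thinned to 1000 UMIs, -0.932 when thinned to 10000 and -1.16 with no thinning. It was -0.307 in the aerocyte-like class, and in the gate it ran from -0.838 to 0.776 without single libraries. The 1491 genes called between positive and negative gated cells became 978 with 1 negative per positive, 749 with positives at 2 UMIs, 896 with a gate at 2 UMIs, 655 with doublets kept and 0 within the aerocyte-like class, and 863 to 1455 without single libraries. The 0 calls within the class became 33 with no filter, 3 with 1 negative per positive, 1 with positives at 2 UMIs, 1 without cells holding Ptprc, Epcam, Col1a2 or Pdgfrb, and 1 to 6 without single libraries.

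The 0 genes of the BPTES by status term became 21 with no filter, 2 within the class (4 with no filter, 1 with 1 negative per positive), and 0 to 108 without single libraries in the gate and 6 to 12 in the class (11 without DMSO 1, 11 without DMSO 2). Against general capillary-like cells, 126 calls became 365 with no filter and 0 with the aerocyte-like class; against dendritic-like cells, 759 became 1186 and 402. Among the classes with at least 20 cells in each library, aerocyte-like cells ranked 1 for Cdkn2a throughout. For Cdkn2b they ranked 2, or 1 with TMM library sizes, thinned shares or resolution 0.5. The cause was not tested for any of these. The contrast within the aerocyte-like class was planned as an alternative to the gate. Its own variants and its reading as a separate result were chosen after seeing the data. So were other uses of that class in the contrasts, the crossed pairing and some left-out libraries.

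Between libraries of the same number, deviations from the group means correlated at -0.0192 in aerocyte-like cells and -0.214 to 0.0712 over classes. With only 2 libraries per group, these values can neither show nor exclude a pairing by number. With the replicate block, Cdkn2a and Cdkn2b were called in 0 classes, and the 15 genes called in aerocyte-like cells between BPTES and DMSO became 386 (75 with the numbers crossed); they were 316 with no filter, 28 with DESeq2, 5 with its size factors, 0 with doublets kept or at resolution 2, 5 at resolution 0.5, and 2 to 411 without single libraries. Without the library block, the 1491 genes became 1175. Cdkn2a had enough UMIs for a test in 6 of the 20 classes fitted, and its level in the others is a description.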

Other observations

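Plasma-like cells had Cdkn2a in 12 of 96 cells, and 41 of their 59 UMIs came from 3 of the 29 cells of BPTES 1. Alveolar macrophage-like cells, of which DMSO 1 held 16, stood at 1.28 and 1.40 CPM of Cdkn2a with BPTES and 5.67 and 8.42 CPM with DMSO, on 33 UMIs in all and too few cells for a test; the DMSO 1 value rests on 2 UMIs. In mesothelial-like cells, the lining of the lung surface, Cdkn2b stood at 13.9 and 6.40 CPM in the DMSO libraries with 222 and 66 cells, and the 3 and 16 cells of the BPTES libraries had none; 12 of the 25 Cdkn2a-positive cells there also had Cdkn2b. An unnamed cluster of 303 cells, led by Cd163l1, Trdc and Il17a, genes of gamma-delta T cells, had 12 Cdkn2a UMIs in 9 cells.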
